A study of Homo sapiens with 12 samples.

Results

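The genes described here are 101 protein-coding genes whose RNA stood lower when miR-29 was added to 2 human kidney cancer cell lines and higher when miR-29 was blocked in another. They were chosen from 11130 protein-coding genes that had at least 100 counts summed over the libraries of each of the 3 lines, out of 58051 genes in the count tables. A gene was taken where the treated minus control difference of its log2 CPM (counts scaled to the library total, with TMM factors and a prior count of 2) was at most -1 in 786-O, at most -1 in A-498 and at least 0.5 in ACHN. Genes whose symbols begin with COL, LAM, LOX, ADAM, MMP, ITG, SPARC, FSTL, TUB or CLDN were left out by name. That removed 14 genes that met the 3 limits, among them COL4A1, COL1A1, SPARC and LOXL2. The members were meant to be the non-matrix part of the response, yet 6 of the 101 (FBN1, SERPINH1, P3H1, P3H4, FRAS1 and C1QTNF6) were on a list of 147 extracellular matrix genes. Because the treated minus control differences chose the members, those differences are given as a description, without a test.

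RNA-seq of total RNA depleted of ribosomal RNA was available for 12 libraries. 786-O and A-498 cells had received either a control mimic or 10 nM of a synthetic miR-29 mimic, which raises miR-29 activity above that of the cell. ACHN cells had received 10 nM of a miR-29 inhibitor, which binds and blocks the cell's own miR-29, or a control inhibitor. Every culture was reverse-transfected with Lipofectamine RNAiMAX and RNA was taken 48 h later. There was 1 library per group in 786-O, so that its ratios had no replicate check, 2 per group in A-498 and 3 per group in ACHN. The study's methods describe the A-498 and ACHN libraries as biological replicates. The mimic and the inhibitor were never used in the same line, so that line and agent cannot be told apart.

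The study used the 3 lines as models of clear cell renal cell carcinoma. Of the renal transcription factors, PAX8 stood at 70.8 to 525 CPM in the controls, PAX2 at 1.24 (A-498) to 31.1 CPM (786-O) and LHX1 at 5.73 (ACHN) to 30.8 CPM (786-O), and KRT8, KRT18 and VIM stood above 100 CPM in every line. CA9 and NDUFA4L2, genes that clear cell tumours usually express strongly, stood at 0.0458 and 0.115 CPM in the 786-O control, 7.05 and 0.152 CPM in those of A-498, and 0.131 and 1.45 CPM in those of ACHN. The leukocyte, endothelial and liver markers PTPRC, CD3E, CD68, PECAM1, VWF and ALB stood at or below 0.378 CPM in every library. The smooth muscle and pericyte markers ACTA2 and PDGFRB were detected, at 2.82 and 5.34 CPM in the 786-O control, 30.1 and 1.55 CPM in those of A-498, and 31.7 and 1.46 CPM in those of ACHN, and their part in the results was not tested. Reads assigned to genes numbered 39919554 to 70027392 per library.

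miR-29 is a small family of microRNAs, which guide the Argonaute protein to messenger RNAs with a short complementary stretch in the 3′ untranslated region (UTR), so that those RNAs are translated less and decay faster. Pairing depends mainly on the seed, the bases near the 5′ end of the microRNA. The family is best known for acting on collagens and other matrix genes, and also on DNA methylation enzymes, cell cycle genes and surface proteins. Its mature members differ outside the seed, and the labels say only miR-29, while a supplement of the study calls the mimic a miR-29b mimic. Their sequences from the RefSeq table (GRCh38.p14) follow, with the seed, bases 2 to 8, in capitals. They are shown because the 3 share it. The mature sequence that the study's methods give for the mimic has the same seed but is identical to none of the 3. hsa-miR-29a-3p lies at chr7:130876748-130876769, hsa-miR-29b-3p at both chr7:130877467-130877489 and chr1:207802450-207802472, and hsa-miR-29c-3p at chr1:207801865-207801886, all on the minus strand.
hsa-miR-29a-3p: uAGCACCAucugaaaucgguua
hsa-miR-29b-3p: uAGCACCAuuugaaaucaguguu
hsa-miR-29c-3p: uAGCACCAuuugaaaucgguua

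The selection did not use sequence, and most members carried a match to this seed. The word searched was TGGTGCT, the complement of bases 2 to 8 (a 7mer-m8 match, or an 8mer match when an A follows), on the sense strand of the longest annotated 3′ UTR of each gene. A match was present in 74 of 101 members (73.3%), against 1996 of 11105 eligible genes with an annotated 3′ UTR (18%). An 8mer was present in 24 members (23.8%), against 3.93% of the eligible genes. There were 2 or more matches in 17 members (16.8%), against 3.19% of the eligible genes. Among 142 genes that met both mimic limits but not the ACHN limit, 70 had a match (49.3%). The 14 genes left out by symbol held one in 10 (71.4%), and the 5 genes that moved the opposite way past the mirrored limits (NR6A1, SLC16A9, MFSD2A, TM4SF4 and CPEB1) in 0.

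Of the other 27 members, 6 had a match to bases 2 to 7 followed by an A (7mer-A1), 12 had the 6-base match alone and 9 had none. Among the 9 were EDN1, NDRG1, TBC1D7, ANXA8L1, GEMIN2, CTXN1, GLIPR1 and ABCA5. The choice of isoform mattered for some of them. In the isoform that GENCODE tags as canonical, the 3′ UTRs of FBN1, TBC1D7 and GEMIN2, among others, held a full match although their longest annotated ones did not, whereas POMK, with 7 matches in its longest 3′ UTR, had 0 in the canonical one. With canonical isoforms, 77 members (76.2%) and 16.8% of eligible genes had a match.

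The difference in share between members and eligible genes was present at every length of the 3′ UTR. In the quartile with the shortest 3′ UTRs, up to 689 nt, 13 of 16 members (81.2%) had a match, against 4.75% of the eligible genes. The shares were 59.3% against 11.6%, 84.6% against 18.8% and 71.9% against 36.8% in the next 3 quartiles. Median 3′ UTR length was 1833 nt in the members and 1594 nt in the eligible genes. Other 7-base words were not as far apart. AGCACCA, the reverse complement of the match, was in 14 members (13.9%) and 12.8% of eligible genes, and TACTTGA, which pairs with the seed of miR-26, in 19 members (18.8%) and 15.5%. In the coding sequence, TGGTGCT was present in 19% of the members and 21% of the eligible genes.

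**Figure D1:**
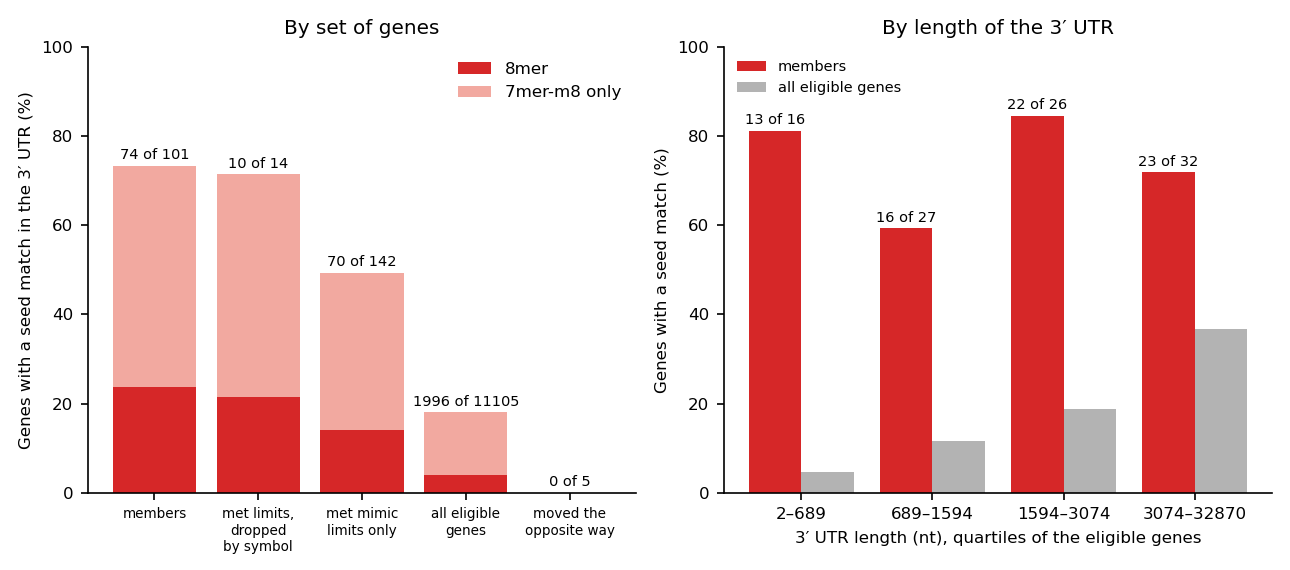
Left, percentage of genes with a miR-29 seed match in the longest annotated 3′ UTR, for 5 sets of genes (dark, 8mer; light, 7mer-m8 only; counts above the bars). Right, the same percentage by quartile of 3′ UTR length. Members stand at 73.3% against 18% of the eligible genes, and above the eligible genes in each of the 4 length classes.

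The 100 matches in the 74 members lay 4 to 9138 nt after the stop codon (median 893 nt), and all 100 were read back from the GRCh38 sequence. Windows around some of them follow, with the matched bases in capitals. The first 4 show the 8mer in members taken up below for folding, immune surface, cell cycle and RNA decay functions.
PPIC, chr5:123023623-123023652, minus strand: ccttcctcaagTGGTGCTAttttaaaacta
CD276, chr15:73714284-73714313, plus strand: cacccccaccaTGGTGCTAttctggggctg
MYBL2, chr20:43716269-43716298, plus strand: tgggcggctccTGGTGCTAacaacaaagtt
DCP2, chr5:113015009-113015038, plus strand: tgtcaccctttTGGTGCTAagcaggagaat

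The canonical 3′ UTR of FBN1 gave an 8mer and a 7mer-m8, 416 and 671 nt after its stop codon, which are not among the 100, since its longest annotated 3′ UTR, in another isoform, held only a 7mer-A1.
FBN1, chr15:48410556-48410585, minus strand: tggtacctattTGGTGCTAgtaaattttca
FBN1, chr15:48410301-48410330, minus strand: agggtttgtaaTGGTGCTtattaagaccaa

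TDG, which removes damaged or oxidised bases from DNA, carried 3 matches, 4, 878 and 1064 nt after its stop codon, and they are shown as an example of a 3′ UTR with several.
TDG, chr12:103987091-103987120, plus strand: gaaTGGTGCTtctcagctctgcttaaatgc
TDG, chr12:103987957-103987986, plus strand: ctcatttaaacTGGTGCTttatgtacatga
TDG, chr12:103988143-103988172, plus strand: tgagttttccaTGGTGCTAcaaataatcca

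The next 3 windows belong to enzymes that add sugars to the same protein modules and that are compared with their relatives below.
POGLUT2, chr13:102784449-102784478, minus strand: tattagaataaTGGTGCTctgaagactctt
GXYLT2, chr3:72975241-72975270, plus strand: tgaatatttaaTGGTGCTccatgactgttg
XXYLT1, chr3:195069504-195069533, minus strand: ctgtgcactgcTGGTGCTtgggaccttatt

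SERPINH1 and TGFB3 are shown for the shorter 7mer-A1 match, which lacks the pair to base 8.
SERPINH1, chr11:75572129-75572158, plus strand: tgagacacatgGGTGCTAttggggttgggg
TGFB3, chr14:75958283-75958312, minus strand: tcctggaagcaGGTGCTAcaacatgtgagg

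All values of members below are CPM or differences of mean log2 CPM, treated minus control, in the order 786-O, A-498 and ACHN where 3 are given together. Fold changes come from these differences, and the prior count makes them smaller than the ratio of CPM in low genes. In 786-O the members' differences ran from -3.96 to -1.001 with a median of -1.703, in A-498 from -3.24 to -1.01 with a median of -1.42, and in ACHN from 0.50 to 1.80 with a median of 0.76. The medians over all eligible genes were -0.037, -0.053 and 0.015. Taken alone, the 786-O limit was met by 6.76% of the eligible genes, the A-498 limit by 3.94% and the ACHN limit by 4.38%, and all 3 together by 1.03% (115 genes, with the 14 left out by symbol).

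In the edgeR quasi-likelihood fit all 101 members were called lower in A-498, where 27% of the 19676 genes tested and 36.7% of the eligible genes were called lower, and all 101 were called higher in ACHN, where 17.3% of 17904 genes and 22.2% of the eligible genes were. Across all genes A-498 had 5313 lower and 5015 higher calls, or 4352 and 6191 when library size replaced TMM. No member overlapped between treated and control libraries in A-498 or in ACHN, as 47.7% and 29.6% of the eligible genes did not in the same direction. The limits fix most of this, and nothing is read from it.

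**Figure D2:**
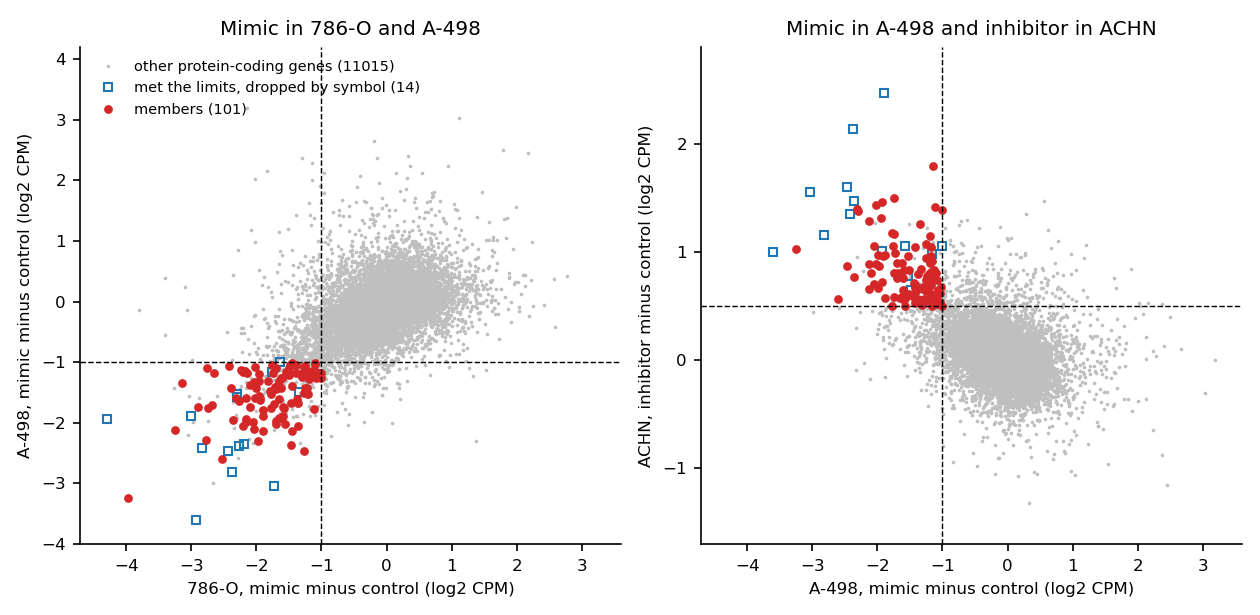
Treated minus control difference of mean log2 CPM for each eligible gene, 786-O against A-498 (left) and A-498 against ACHN (right). Red points are the 101 members, open squares the 14 genes left out by symbol and grey points the other 11015 genes; dashed lines mark the limits of -1, -1 and 0.5, and the members fill the corner beyond them.

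Member RNA as a whole made up 0.713% of the reads in genes in the 786-O control library and 0.197% with the mimic. The share was 0.778% in both A-498 controls and 0.281% and 0.278% with the mimic. In ACHN it was 0.5%, 0.511% and 0.503% in the controls and 0.843%, 0.847% and 0.844% with the inhibitor. In A-498 and ACHN the libraries of a group lay close together, and the gap between groups follows from the limits. Reads from a whole culture cannot tell fewer cells of a kind from less RNA per cell. The size of the response differed among members. 69 stood further down in 786-O than in A-498 and 32 the other way round. In 786-O 31 members stood at least 4-fold lower, in A-498 14 did, and 6 did in both. In ACHN 20 members stood at least 2-fold higher.

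The type of seed match did not order these differences. The medians were -1.62, -1.42 and 0.68 for the 24 members with an 8mer, -1.90, -1.55 and 0.78 for the 50 with only a 7mer-m8, and -1.57, -1.68 and 0.73 for the 9 with none. Ranks of the members in 786-O and A-498 had a Spearman correlation of 0.28 over the 101 genes. This is a description over genes cut at the limits.

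The member furthest beyond the limits in every line at once was PPIC (ENSG00000168938, chr5:123023250-123036725, minus strand), which encodes cyclophilin C, a proline isomerase of the endoplasmic reticulum. It stood at 60.2 CPM in the 786-O control library and 8.73 CPM with the mimic. There were 68.2 and 67.3 CPM in the A-498 controls and 14.0 and 13.6 CPM with the mimic, and 17.3, 16.9 and 16.3 CPM in the ACHN controls and 43.2, 44.3 and 44.2 CPM with the inhibitor. PPIC was thus 6.87-fold lower in 786-O, 4.89-fold lower in A-498 and 2.60-fold higher in ACHN.

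PPIC belonged to 12 members that fold or glycosylate proteins in the secretory pathway, whose median differences were -1.5, -1.98 and 0.84. SERPINH1 (HSP47, ENSG00000149257, chr11:75562056-75572783, plus strand) is the chaperone of collagen. It was measured at 177 CPM in the 786-O control library and 57.9 CPM with the mimic. Counts gave 537 and 509 CPM in the A-498 controls and 139 and 138 CPM with the mimic, and 144, 148 and 155 CPM in the ACHN controls and 277, 307 and 288 CPM with the inhibitor. Differences were -1.61 (786-O), -1.92 (A-498) and 0.97 (ACHN). P3H1, a prolyl 3-hydroxylase of collagen, and P3H4, a related protein that takes part in collagen modification, had differences of -1.20, -1.52 and 0.61 and of -1.22, -1.42 and 0.68. P3H1 works in a complex with CRTAP and cyclophilin B (PPIB), which were not members. CRTAP differed by 0.25 in 786-O, -0.07 in A-498 (adjusted p = 0.346) and 0.03 in ACHN (adjusted p = 0.836, edgeR). PPIB differed by -0.48 in 786-O, -1.05 in A-498 (adjusted p = 2.6e-11) and 0.24 in ACHN (adjusted p = 0.000261, edgeR).

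POGLUT2 (ENSG00000134901, chr13:102784281-102799040, minus strand) adds O-linked glucose to epidermal growth factor-like repeats, the modules of Notch receptors and fibrillins. It had 16.3 CPM in the 786-O control library and 4.12 CPM with the mimic. The A-498 and ACHN values were 26.9 and 26.8 CPM in the A-498 controls and 5.43 and 5.38 CPM with the mimic, and 118, 108 and 119 CPM in the ACHN controls and 298, 290.2 and 323 CPM with the inhibitor. POGLUT2 was 3.92-fold lower in 786-O, 4.94-fold lower in A-498 and 2.64-fold higher in ACHN. GXYLT2 and XXYLT1 add xylose to O-linked glucose on such repeats, though not necessarily to the glucose that POGLUT2 adds. GXYLT2 was found at 61.2 CPM in the 786-O control library and 14.7 CPM with the mimic, and at 36.9 and 39.0 CPM in the A-498 controls and 9.28 and 9.79 CPM with the mimic. It had 5.64, 5.44 and 4.77 CPM in the ACHN controls and 9.01, 7.93 and 8.34 CPM with the inhibitor, so that ACHN controls lay well below those of the other lines. XXYLT1 had 20.1 CPM in the 786-O control library and 7.77 CPM with the mimic, 20.9 and 21.2 CPM in the A-498 controls and 5.27 and 4.89 CPM with the mimic, and 9.69, 8.20 and 9.79 CPM in the ACHN controls and 18.8, 19.5 and 19.5 CPM with the inhibitor. Differences were -2.06, -1.99 and 0.67 for GXYLT2 and -1.36, -2.05 and 1.06 for XXYLT1.

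Of the 6 human enzymes that add O-linked glucose or its xylose to such repeats, these 3 were members and 3 were not. The list was made after the values were seen, and the 6 need not act on the same glucose. POGLUT1, the glucosyltransferase most studied on Notch, differed by 0.14, 0.14 and 0.11, and POGLUT3 by 0.39, -0.21 and -0.15. GXYLT1, the other enzyme for the first xylose, differed by -0.48, 1.64 and -0.11. In A-498, GXYLT1 thus stood higher with the mimic and GXYLT2 lower.

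POMK, a kinase that phosphorylates a mannose on dystroglycan, stood at 20.3 CPM in the 786-O control library and 6.21 CPM with the mimic. There were 27.4 and 25.8 CPM in the A-498 controls and 6.92 and 6.62 CPM with the mimic, and 17.5, 17.9 and 17.1 CPM in the ACHN controls and 32.0, 32.0 and 31.9 CPM with the inhibitor. PIGS, a subunit of the transamidase that attaches GPI anchors, had 111 CPM in the 786-O control library and 27.1 CPM with the mimic, 100.5 and 104 CPM in the A-498 controls and 23.7 and 23.8 CPM with the mimic, and 59.7, 62.9 and 64.6 CPM in the ACHN controls and 106, 115 and 107 CPM with the inhibitor. The 2 genes differed by -1.7, -1.97 and 0.87 and by -2.03, -2.10 and 0.80, with no overlap between groups. CNPY4 had the widest fall of this group in A-498 (differences -1.26, -2.46 and 0.88). OSTC, a subunit of the oligosaccharyltransferase, and CSGALNACT2, which starts chondroitin chains, completed the group with -1.38, -1.61 and 0.65 and -1.14, -1.23 and 0.78.

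**Figure D3:**
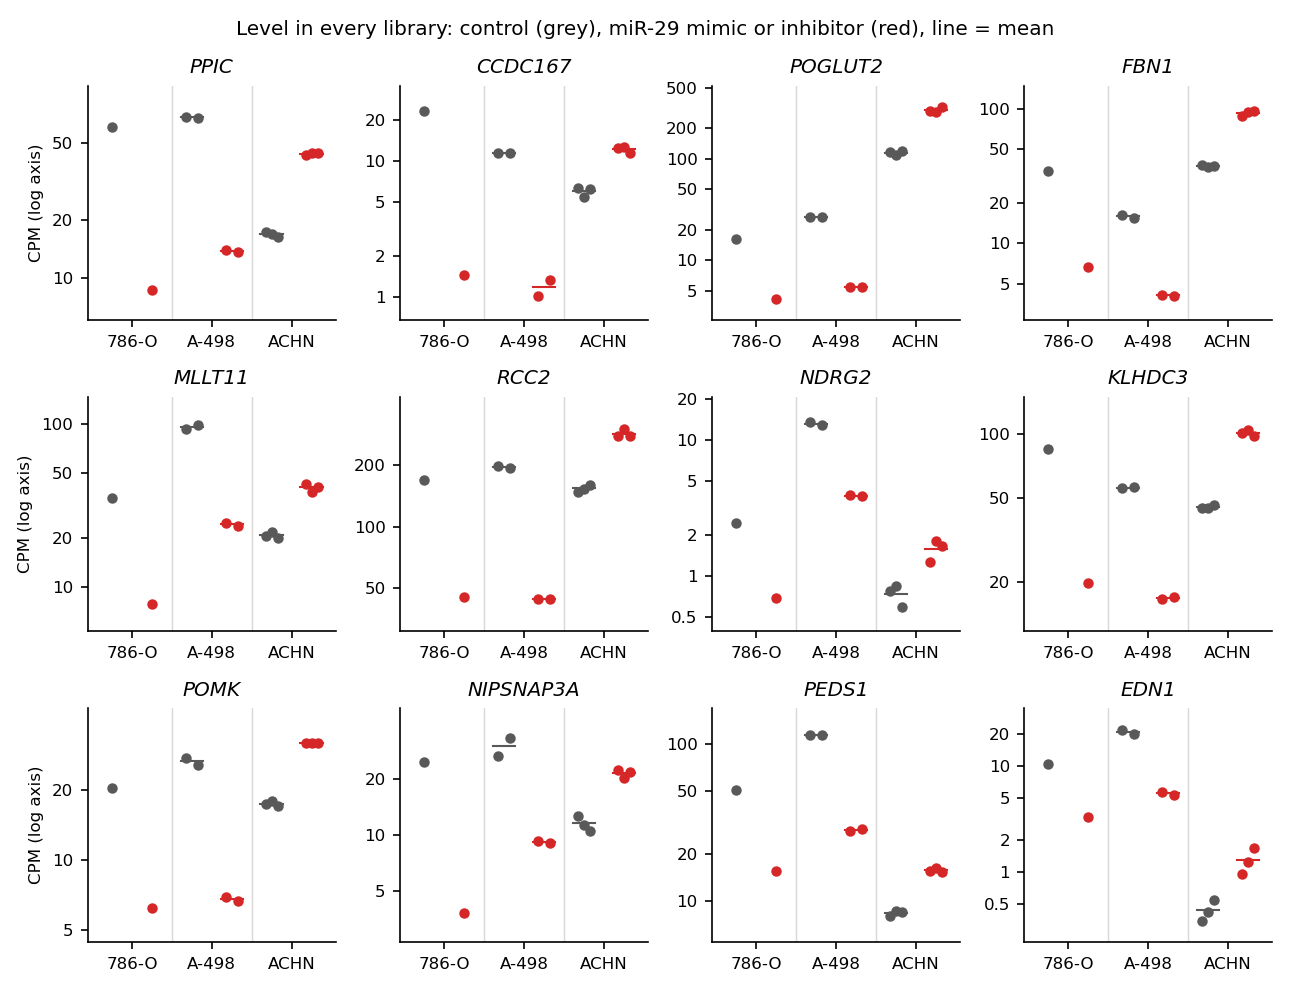
CPM (log axis) in each of the 12 libraries for the 12 members furthest beyond the limits, grey for control and red for miR-29 mimic (786-O, A-498) or inhibitor (ACHN); short lines are means of 2 or 3 libraries. In each panel the red points are below the grey in 786-O and A-498 and above them in ACHN, while the control level differs between lines.

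The group of secreted ligands and other extracellular proteins held 11 members (medians -1.65, -1.38 and 0.8). NREP was placed in it, although its product is an intracellular protein. EDN1, the vasoconstrictor endothelin-1, had 10.3 CPM in the 786-O control library and 3.27 CPM with the mimic. It had 21.9 and 20.1 CPM in the A-498 controls and 5.65 and 5.33 CPM with the mimic, and 0.349, 0.424 and 0.546 CPM in the ACHN controls and 0.96, 1.25 and 1.68 CPM with the inhibitor. The ACHN values rest on 17, 18 and 22 counts in the controls and 60, 65 and 116 with the inhibitor. Differences were -1.65 (786-O), -1.93 (A-498) and 1.47 (ACHN), and no isoform of EDN1 had a seed match in its 3′ UTR.

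TGFB3, a transforming growth factor ligand, was measured at 6.54 CPM in the 786-O control library and 0.935 CPM with the mimic. The other lines gave 4.26 and 4.34 CPM in the A-498 controls and 1.27 and 1.24 CPM with the mimic, and 0.882, 0.801 and 1.04 CPM in the ACHN controls and 1.34, 1.75 and 1.79 CPM with the inhibitor, on 34 to 43 counts in the ACHN controls. TGFB3 differed by -2.75, -1.75 and 0.81. INHBA, the subunit of activin A in the same superfamily, differed by -2.75 (786-O), -1.09 (A-498) and 0.55 (ACHN). It had 389, 398 and 364 CPM in the ACHN controls and 578, 541 and 566 CPM with the inhibitor. In A-498 it had 15.6 and 14.8 CPM in the A-498 controls and 7.54 and 6.67 CPM with the mimic, so its control level in ACHN was far above that in A-498.

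FBN1 (ENSG00000166147, chr15:48408313-48645721, minus strand), the main protein of microfibrils, had 34.4 CPM in the 786-O control library and 6.68 CPM with the mimic. It had 16.3 and 15.5 CPM in the A-498 controls and 4.14 and 4.06 CPM with the mimic, and 38.1, 37.0 and 37.6 CPM in the ACHN controls and 88.4, 95.4 and 97.2 CPM with the inhibitor. Fibrillin-1 RNA was thus 5.13-fold lower in 786-O, 3.85-fold lower in A-498 and 2.49-fold higher in ACHN. FRAS1, a basement membrane protein, differed by -1.39, -1.17 and 0.70, on 37 and 46 counts in the A-498 controls and 16 and 22 with the mimic. C1QTNF6, a secreted protein with a collagen-like and a C1q-like part, had 9.54, 10.2 and 8.77 CPM in the ACHN controls and 32.5, 36.5 and 30.6 CPM with the inhibitor, the largest difference of any member in ACHN (1.80), with -2.19 in 786-O and -1.14 in A-498. CEMIP, which takes part in breakdown of hyaluronan, differed by -1.45, -2.13 and 1.29, on 27 to 36 counts in the ACHN controls. NTNG2, NREP, VASH1, an inhibitor of blood vessel growth, and GLIPR1 differed by -1.67 to -1.1 in 786-O, -1.42 to -1.01 in A-498 and 0.51 to 0.80 in ACHN.

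6 members are surface proteins with roles in immune recognition or cell contact. CD276 (B7-H3, ENSG00000103855, chr15:73683966-73714514, plus strand), an immune checkpoint molecule, had 114 CPM in the 786-O control library and 34.4 CPM with the mimic. It had 133 and 123 CPM in the A-498 controls and 39.3 and 40.1 CPM with the mimic, and 80.8, 86.1 and 90.6 CPM in the ACHN controls and 141, 156 and 142 CPM with the inhibitor. Its differences were -1.72 (786-O), -1.69 (A-498) and 0.77 (ACHN). ULBP2, a ligand of the NKG2D receptor of natural killer cells, was found at 8.99 CPM in the 786-O control library and 2.96 CPM with the mimic, 9.03 and 7.93 CPM in the A-498 controls and 2.36 and 2.70 CPM with the mimic, and 7.92, 7.19 and 6.71 CPM in the ACHN controls and 15.6, 14.5 and 13.3 CPM with the inhibitor. Its differences were -1.59, -1.73 and 0.99. ULBP2 has close paralogues and its reads could be split among them. VSIR (VISTA), another checkpoint molecule, differed by -1.26, -1.08 and 0.75.

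F11R, the junctional adhesion molecule JAM-A, had 17.4 CPM in the 786-O control library and 4.52 CPM with the mimic, 97.6 and 107 CPM in the A-498 controls and 33.2 and 34.2 CPM with the mimic, and 45.2, 46.8 and 46.5 CPM in the ACHN controls and 75.0, 76.1 and 83.7 CPM with the inhibitor. F11R differed by -1.94, -1.6 and 0.76. Exons of another annotated gene cover 36.6% of its exonic bases on the same strand. MPZL3, an immunoglobulin-like membrane protein, had 8.18 CPM in the 786-O control library and 2.74 CPM with the mimic. It had 14.3 and 16 CPM in the A-498 controls and 3.93 and 3.46 CPM with the mimic, and 4.47, 4.76 and 4.30 CPM in the ACHN controls and 12.9, 11.8 and 12.2 CPM with the inhibitor. Its rise in ACHN was the widest of the 6 (differences -1.56, -2.03 and 1.44). P2RY6, a receptor for UDP, had differences of -2.65, -1.17 and 0.55.

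Signalling, growth control and cell death made up the largest group, 19 members, with medians of -1.7, -1.18 and 0.76. CDK6 (ENSG00000105810, chr7:92604921-92836573, minus strand) is a kinase that drives entry into the cell cycle. It had 1150.0 CPM in the 786-O control library and 155 CPM with the mimic. It had 246 and 284 CPM in the A-498 controls and 81.2 and 77.0 CPM with the mimic, and 653, 718 and 636 CPM in the ACHN controls and 1006, 971 and 1040.0 CPM with the inhibitor. CDK6 was 7.40-fold lower in 786-O, 3.34-fold lower in A-498 and 1.5-fold higher in ACHN. MYBL2 (B-MYB), a transcription factor of the cell cycle, had 176 CPM in the 786-O control library and 30.5 CPM with the mimic, 111 and 100.5 CPM in the A-498 controls and 17.9 and 16.9 CPM with the mimic, and 67.6, 75.5 and 77.1 CPM in the ACHN controls and 105, 116 and 105 CPM with the inhibitor. With differences of -2.53, -2.60 and 0.56, it had the second widest fall of all members in A-498, after CCDC167. CCNG2 and MXD4, which slow growth, differed by -1.7, -1.1 and 0.80 and -1.12, -1.13 and 0.83, in the same directions as the drivers CDK6 and MYBL2.

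NDRG1 and NDRG2 belong to a family of stress- and differentiation-responsive proteins. NDRG1 had 144 CPM in the 786-O control library and 47.7 CPM with the mimic. It had 1652 and 1584 CPM in the A-498 controls and 444 and 429.7 CPM with the mimic, and 42.6, 45.1 and 42.4 CPM in the ACHN controls and 82.8, 90.5 and 82.2 CPM with the inhibitor. NDRG2 had 2.46 CPM in the 786-O control library and 0.69 CPM with the mimic, 13.6 and 12.8 CPM in the A-498 controls and 3.92 and 3.89 CPM with the mimic, and 0.78, 0.848 and 0.596 CPM in the ACHN controls and 1.28, 1.80 and 1.66 CPM with the inhibitor. In ACHN this was 24 to 38 counts in the controls and 80 to 115 with the inhibitor. The 2 genes differed by -1.59, -1.89 and 0.97 and by -1.77, -1.75 and 1.06. NDRG2 had a 7mer-m8 match and NDRG1 had none in any isoform. Their relative NDRG4 missed the A-498 limit, with a difference of -0.9965.

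Several members bear on Wnt and Notch signalling. CTNNBIP1 (ICAT), an inhibitor of β-catenin, had 25.8 CPM in the 786-O control library and 7.55 CPM with the mimic, 11.9 and 11.9 CPM in the A-498 controls and 3.73 and 4.51 CPM with the mimic, and 9.09, 9.38 and 8.44 CPM in the ACHN controls and 17.0, 18.2 and 17.4 CPM with the inhibitor. DTX4, a Deltex ubiquitin ligase of the Notch pathway, had 13.4 CPM in the 786-O control library and 3.43 CPM with the mimic. It had 25.3 and 24.2 CPM in the A-498 controls and 8.02 and 8.02 CPM with the mimic, and 1.21, 1.74 and 1.81 CPM in the ACHN controls and 2.74, 3.28 and 2.88 CPM with the inhibitor. Differences were -1.77, -1.53 and 0.96 for CTNNBIP1, -1.95, -1.62 and 0.90 for DTX4 and -1.62, -1.43 and 0.56 for DIXDC1, a positive regulator of Wnt signalling. PIK3R3, a regulatory subunit of phosphoinositide 3-kinase, differed by -2.18, -1.15 and 0.76, and TGIF2, a repressor in TGF-β signalling, by -1.52, -1.17 and 0.82.

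PPP1R14C, a phosphatase inhibitor, had the widest fall of the signalling group in 786-O (differences -3.14, -1.34 and 1.26). TRAFD1 and NLRX1, which dampen innate immune signalling, differed by -1.7, -1.43 and 0.72 and -2.42, -1.06 and 0.52. SIAH2, a ubiquitin ligase of the hypoxia response, ARRDC3, an arrestin-like adaptor, NRBP1 and SH3BP5L differed by -1.40 to -1.04 in 786-O, -1.18 to -1.03 in A-498 and 0.62 to 0.76 in ACHN.

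The 9 members grouped under nucleus, chromatin and transcription had medians of -2.04, -1.42 and 0.89, and each had a seed match. The grouping was made after the values were seen. MYBL2, TGIF2 and MXD4, placed with signalling, also act on transcription, and MXD4 had no full match. MLLT11 had 35.5 CPM in the 786-O control library and 7.90 CPM with the mimic. It had 93.7 and 99.8 CPM in the A-498 controls and 24.8 and 23.8 CPM with the mimic, and 20.7, 21.7 and 20.2 CPM in the ACHN controls and 43.3, 38.5 and 41.2 CPM with the inhibitor. RCC2, a regulator of chromosome condensation and Rac, had 169 CPM in the 786-O control library and 45.2 CPM with the mimic, 197 and 193 CPM in the A-498 controls and 44.1 and 44.6 CPM with the mimic, and 147, 153 and 160.2 CPM in the ACHN controls and 278, 299 and 275 CPM with the inhibitor. The A-498 libraries of each group lay close together beside the gap between groups. MLLT11 differed by -2.16, -1.99 and 0.97 and RCC2 by -1.90, -2.13 and 0.89. TAF11, a subunit of the basal factor TFIID, had 30.1 CPM in the 786-O control library and 6.01 CPM with the mimic, 23.0 and 22.2 CPM in the A-498 controls and 7.68 and 7.35 CPM with the mimic, and 17.4, 17.2 and 18.0 CPM in the ACHN controls and 32.2, 30.1 and 31.6 CPM with the inhibitor. Its differences were -2.32, -1.58 and 0.83.

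TDG, whose 3 sites are printed above, had 36.7 CPM in the 786-O control library and 16.9 CPM with the mimic, 44.6 and 46.8 CPM in the A-498 controls and 20.9 and 19.3 CPM with the mimic, and 53.9, 53.0 and 48.0 CPM in the ACHN controls and 121, 105 and 119 CPM with the inhibitor. It differed by -1.12 (786-O), -1.19 (A-498) and 1.15 (ACHN). TDG excises the products that TET enzymes make from methylated cytosine. Of these enzymes, TET2 fell just short of the limits, TET3 differed by -1.49, -0.50 and 1.00, and TET1 by -1.29, 0.20 (adjusted p = 0.149) and 0.96. The DNA methyltransferases DNMT3A and DNMT3B differed by -0.45, -0.64 and 0.65, and by -0.79, -0.74 and 1.25, and both were called lower in A-498 (adjusted p = 5.94e-07 and 8.42e-09) and higher in ACHN (8.73e-09 and 2.93e-12, edgeR). MAZ and ATOH8, transcription factors, BCL7A (differences -2.04, -1.33 and 0.85), a subunit of the SWI/SNF remodeller, MORF4L1, of histone acetylase complexes, and ZNF512B differed by -2.39 to -1.0, -2.05 to -1.18 and 0.64 to 1.04.

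4 members handle or degrade RNA. DCP2, the enzyme that removes the cap of messenger RNAs in decay, had 243 CPM in the 786-O control library and 51.7 CPM with the mimic, 114 and 123 CPM in the A-498 controls and 55.6 and 53.3 CPM with the mimic, and 61.8, 64.9 and 59.6 CPM in the ACHN controls and 170.2, 159 and 169 CPM with the inhibitor. DCP2 was 4.70-fold lower in 786-O, 2.18-fold lower in A-498 and 2.68-fold higher in ACHN. ANKRD52, a regulatory subunit of a phosphatase that acts on Argonaute, and GEMIN2, of the complex that assembles spliceosomal particles, differed by -1.46, -1.40 and 0.68 and -1.49, -1.09 and 0.53.

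In membrane traffic, the cytoskeleton and protein turnover there were 15 members, 13 of them with a seed match, and medians of -1.74, -1.51 and 0.73. Matches were fewer in other groups, with 5 of 11 secreted, 2 of 4 RNA, 8 of 12 secretory pathway and 8 of 12 transport members. The signalling group had 14 of 19, the little characterised 10 of 13 and the surface proteins 5 of 6. KLHDC3, a substrate receptor of a ubiquitin ligase, had 85.0 CPM in the 786-O control library and 19.7 CPM with the mimic. It had 55.8 and 56.1 CPM in the A-498 controls and 16.6 and 16.9 CPM with the mimic, and 44.6, 44.7 and 46.1 CPM in the ACHN controls and 102, 105 and 98.6 CPM with the inhibitor. KLHDC3 was 4.29-fold lower in 786-O, 3.34-fold lower in A-498 and 2.25-fold higher in ACHN. BLMH, a cysteine protease, had the widest fall of the group in A-498 (differences -1.47, -2.36 and 0.77). ATG9A, the lipid scramblase of autophagy, differed by -1.79, -1.48 and 0.60, with 38.8% of its exonic bases shared with another annotated gene. TBC1D7, a subunit of the TSC complex, differed by -2.15, -1.94 and 0.73. The other 11 (CHIC2, COMMD2, TBCCD1, RMND5A, CCSAP, DYM, SH3GL1, RAB11FIP1, FBXW9, DYNLT1 and ASAP2) differed by -2.20 to -1.27, -1.68 to -1.05 and 0.56 to 0.92.

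Transport and metabolism made up 12 members (medians -1.80, -1.34 and 0.66). PEDS1, the desaturase that makes plasmalogens, had 50.8 CPM in the 786-O control library and 15.7 CPM with the mimic. It had 114 and 115 CPM in the A-498 controls and 28.0 and 28.7 CPM with the mimic, and 8.11, 8.65 and 8.49 CPM in the ACHN controls and 15.6, 16.2 and 15.3 CPM with the inhibitor. NIPSNAP3A had 24.6 CPM in the 786-O control library and 3.81 CPM with the mimic, 26.6 and 33.2 CPM in the A-498 controls and 9.27 and 9.01 CPM with the mimic, and 12.6, 11.3 and 10.5 CPM in the ACHN controls and 22.4, 20.3 and 21.7 CPM with the inhibitor. The differences were -1.69, -2.01 and 0.90 for PEDS1 and -2.68, -1.7 and 0.90 for NIPSNAP3A. SLC2A3 (GLUT3), a glucose transporter, differed by -1.12 (786-O), -1.77 (A-498) and 1.18 (ACHN), and its near copy SLC2A14 could share reads. BPGM, which makes 2,3-bisphosphoglycerate in glycolysis, differed by -1.62, -1.26 and 0.74, and ENTPD7, a nucleoside triphosphatase, by -1.45, -1.01 and 1.39. The other 7 (SLC18B1, ABCA5, SFXN3, TIMM8B, HINT3, UAP1L1 and STMP1) differed by -2.27 to -1.0, -1.78 to -1.08 and 0.50 to 0.66.

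13 members are little characterised or had no place in the other groups. CCDC167, a small membrane protein, had the widest fall in both mimic lines. It had 23.2 CPM in the 786-O control library and 1.45 CPM with the mimic. It had 11.4 and 11.3 CPM in the A-498 controls and 1.02 and 1.34 CPM with the mimic, and 6.30, 5.37 and 6.16 CPM in the ACHN controls and 12.3, 12.6 and 11.4 CPM with the inhibitor. CCDC167 was 15.6-fold lower in 786-O, 9.46-fold lower in A-498 and 2.04-fold higher in ACHN. S100A16, a calcium-binding protein, had 161 CPM in the 786-O control library and 16.9 CPM with the mimic, 41.0 and 38.2 CPM in the A-498 controls and 9.03 and 9.12 CPM with the mimic, and 104, 100.4 and 104 CPM in the ACHN controls and 164, 169.7 and 154 CPM with the inhibitor. S100A16 differed by -3.25, -2.12 and 0.66, the second widest fall in 786-O. YPEL2, KIAA0513, C5orf15, C16orf87, TMEM183A, TMEM164, UBTD2, ATXN7L3B, CTXN1, CACFD1 and ANXA8L1 differed by -2.15 to -1.09, -1.88 to -1.04 and 0.50 to 1.08. ANXA8L1 has a near-identical copy, ANXA8, and its counts are uncertain.

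**Figure D4:**
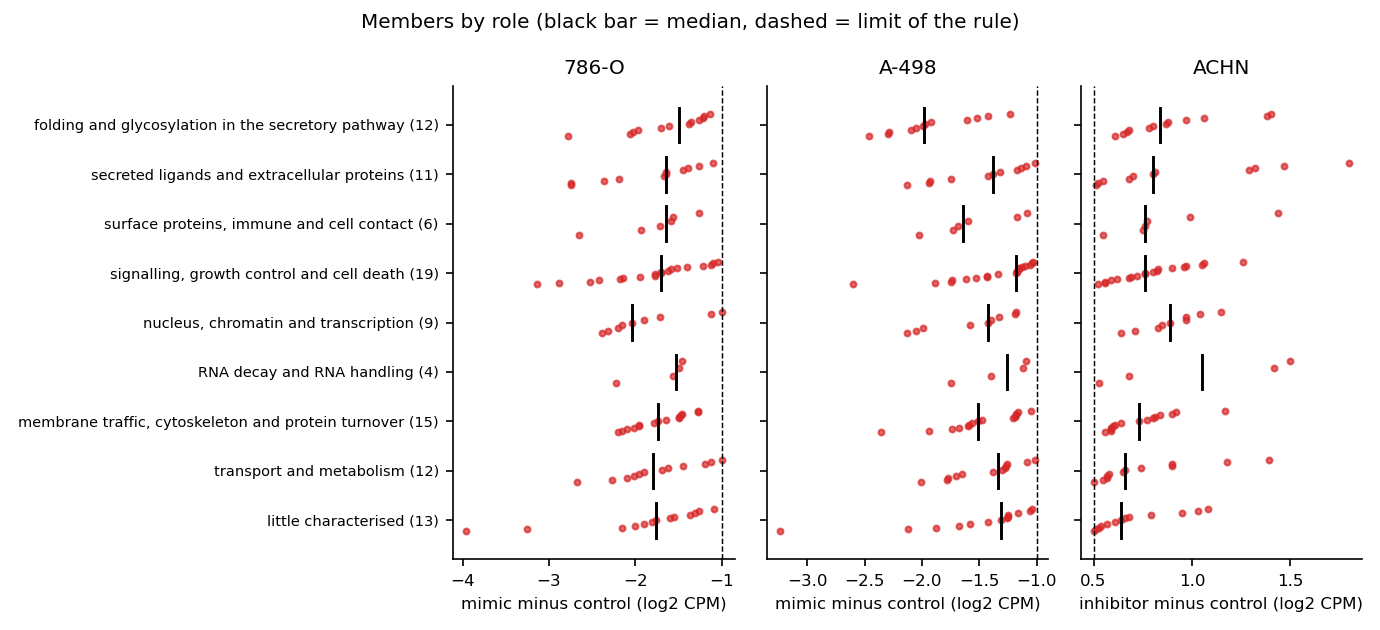
Treated minus control difference of mean log2 CPM for each member (red points) in 9 role groups and 3 lines, with the group median (black bar) and the limit of the selection (dashed). The groups overlap in every line; the secretory group has the lowest median in A-498 (-1.98) and the nuclear group the lowest in 786-O (-2.04).

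The limits cut through a continuum. Just inside were C16orf87 (-1.548, -1.156 and 0.5009), STMP1 (-1.898, -1.782 and 0.5007) and ABCA5 (-1.001, -1.267 and 0.546). Just outside were TCEAL4 (-0.9996, -1.292 and 0.5597), TET2 (-1.209, -0.9977 and 0.7037) and NDRG4 (-1.752, -0.9965 and 0.5632).

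A list of 47 targets of miR-29 known from general knowledge outside the matrix held 7 members, CD276, CDK6, MYBL2, BCL7A, PIK3R3, TDG and CTNNBIP1. Of its genes, 32 of 40 tested were called lower and 5 higher in A-498, where 27% of all genes tested and 36.7% of the eligible genes were called lower. In ACHN 34 of 43 were called higher and 1 lower, where 17.3% and 22.2% were called higher. These counts include the 7 members, whose calls follow from the limits. The list's median differences were -1.02, -0.56 and 0.55, against -0.037, -0.053 and 0.015 over the eligible genes. The list of matrix genes not left out by symbol had 45 of 101 tested called lower and 29 called higher in A-498, and 38 of 90 called higher and 10 lower in ACHN, against the same background shares and with its 6 members included. Its medians were -0.38, -0.24 and 0.13. Both lists were written with earlier results of these data known.

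The controls of A-498 and ACHN give the members' levels without added mimic or inhibitor. The selection used these same libraries, so the control levels are not independent of the limits or of the count minimum. In ACHN, EDN1, NDRG2, CEMIP, NTNG2 and ANXA8L1 met the minimum of 100 summed counts only with the inhibitor libraries. Whether the selection shaped the counts below was not tested. Line and control agent also cannot be told apart, and the counts are a description. 71 members (70.3%) were called higher in A-498 by edgeR, where 41% of the 19689 genes tested and 42.1% of the eligible genes were, 20 (19.8%) were called higher in ACHN, where 38.7% and 44.3% were, and 10 were not called. The median log2 difference, A-498 minus ACHN, was 0.64 in the members and -0.02 in the eligible genes. Eligible genes that were not members but had a seed match were higher in A-498 in 44.8% and in ACHN in 42.6%, and genes that met the mimic limits only in 47.9% and 38%. Of the 14 genes left out by symbol, which met the same limits as the members, 64.3% were higher in A-498 and 35.7% in ACHN, with a median difference of 1.67.

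The widest of these differences were in EDN1, at 5.51 (SE 0.125), and NDRG1, at 5.15 (SE 0.0431). NDRG2, DTX4 and PEDS1 followed with 4.07, 3.91 and 3.70. In the other direction stood INHBA, at -4.73 (SE 0.0541), and FRAS1, at -4.63 (SE 0.117). EDN1 and NDRG2 met the count minimum in ACHN only with the inhibitor libraries, so nothing is read from their place in this order. POGLUT2 stood at -2.17 while GXYLT2 and XXYLT1 stood at 2.77 and 1.12. CDK6 was higher in ACHN (-1.41) and MYBL2 in A-498 (0.46). Over the 3 lines, control levels scaled together were highest in 786-O for 46 members, in A-498 for 43 and in ACHN for 12, and lowest in ACHN for 58. 786-O had a single control library and was not tested.

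**Figure D5:**
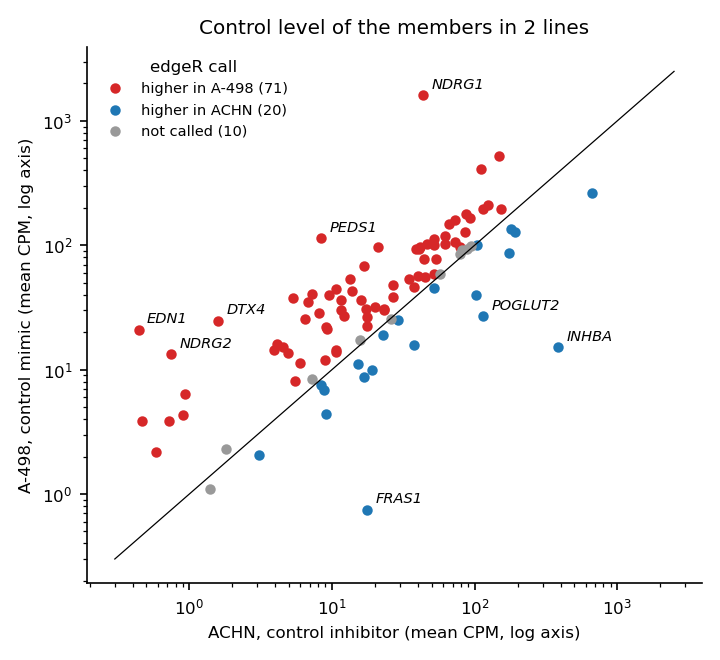
Mean CPM of each member in the ACHN control inhibitor libraries (n = 3) and the A-498 control mimic libraries (n = 2), both on log axes, with the line of equal level. Colours give the edgeR call at an adjusted p below 0.05; 71 members are higher in A-498, 20 in ACHN and 10 are not called.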

How the data were processed

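Ribosomal RNA was depleted and strand-specific libraries were made. The authors deposited raw counts per gene, made per the labels with HISAT2 and HTSeq on GRCh38. Of 58051 gene identifiers, 56948 (98.1%) matched GENCODE v44, which gave symbols, gene types and 3′ UTRs. 5 summary lines, holding 37.2% to 48% of the reads of a library, were left out. The authors also deposited DESeq2 tables of their own comparisons, with fold changes and p-values, which were not used. Libraries were grouped by their labels. Per the methods of the study, other A-498 libraries had been set aside because their labels were in doubt, and they were not analysed here.

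The members and lists were chosen with earlier results of these data known. Log2 CPM came from TMM factors within each line. Counts were tested with edgeR 4.0.16 (R 4.3.3, quasi-likelihood, filterByExpr, Benjamini-Hochberg threshold 0.05) without a block, separately in A-498, in ACHN and between their controls. The biological coefficient of variation was 3.83%, 5.25% and 4.45%. The scripts were tested on simulated data. Within groups, counts varied beyond sampling noise (chi-square over its degrees of freedom, 3.87 to 12.2). The numbers shared by ACHN libraries did not pair them (correlations of deviations 0.0418, -0.0504 and -0.00467). No molecular identifiers were described, so counting precision is that of reads.

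Members were named by a score, the smallest of the fall in 786-O, the fall in A-498 and 2 times the rise in ACHN. The 24 with the highest score, the 3 lowest, the 3 genes just outside and members on the lists were named with values, and the others by role. Some members are counted but not reported here by name. Roles were written from general knowledge after the values were seen. Alternatives were DESeq2 1.42.0, other scalings, prior counts of 0.5 and 5, count minimums of 10 and 1000, wider and narrower limits, no filter on low counts, a replicate block, each library left out, and other definitions of a seed match.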

Additional observations from a re-analysis of the deposited data

How the results depend on the processing

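The number of members was 82 with library size in place of TMM, 93 with TMM over all libraries, 92 with DESeq2 size factors, 103 and 97 with prior counts of 0.5 and 5, 116 and 68 with count minimums of 10 and 1000, and 96 to 104 with each A-498 or ACHN library left out. Limits 10% wider gave 154 genes and limits 10% narrower 80. 79 of the 101 members met the rule under every scaling, prior count and left-out library. All 2525 recomputed member differences kept their direction. Of these, 175 moved by more than the spread between replicates or, in 786-O, which had no replicates, by more than the counting error. Library size shifted the median A-498 difference of the eligible genes by 0.11. In the fit across all genes, DESeq2 called 100 members in A-498 and 99 in ACHN, and with a library left out edgeR called 101 and 98 to 100. The members called higher in A-498 controls numbered 69 to 71 under every alternative. With a replicate block, ACHN had 3125 higher and 2638 lower calls and all 101 members called higher, and with the block on numbers 1 and 3 the controls gave 70 members higher in A-498 and 19 lower there (70 and 22 on the same libraries without the block). No block could be fitted in A-498, whose groups share only number 1. The share of members with a seed match was 23.8% for the 8mer (3.93% of eligible genes) and 91.1% for any 6-base match (36.8%). It was 62.4% when only the first 2000 nt were searched (12.5%) and 69.4% in genes with a single shared 3′ UTR (15.7%). Alternatives chosen after seeing the data gave 77.2% in any isoform (19.7%) and 19% in the coding sequence (21%). They also gave 13.9% for the reverse complement (12.8%) and 18.8% for the miR-26 word (15.5%). 786-O had 1 library per group, and few counts limit the precision of FRAS1 and CTXN1 in A-498 (SE 0.302 and 0.264) and of NTNG2, EDN1 and ANXA8L1 in ACHN (SE 0.263, 0.248 and 0.245).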
